A study of Mus musculus with 2 samples.

Results

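Pou1f1, Pitx1, Lhx3, Lhx4, Hesx1, Gata2, Isl1 and Six6 are 8 transcription factors of the pituitary lineages. They were found by gene symbol, through the Ensembl identifiers of the count table and a GENCODE annotation of the mouse genome build GRCm38, and made up 8 of the 47069 genes in the table. Poly(A) RNA of dissociated primary mouse pituitary cells was sequenced in 2 libraries, 1 stored in RNA-Best, the proprietary stabilizing reagent under study, and 1 in RNAlater, a commercial RNA preservative that served as the reference. The comparison addressed whether RNA-Best gives the same expression profile as an established preservative. All animals were pure C57BL/6 females of 10 to 12 weeks whose estrous cycles were not synchronized, and per the labels only the stabilizer set the groups apart. Each sample held 500000 to 700000 cells pooled from 5 whole pituitaries that had been digested and dispersed, with no sorting, so each value is an average over the cell types of both lobes and over animals. With 1 library in each group there was no replicate check, no spread between replicates and no test, and the 95% intervals given here cover counting error only.

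The anterior pituitary makes its hormones in specialized cell types that arise from a shared embryonic primordium, Rathke's pouch, under the control of a cascade of transcription factors. The paired-type and LIM homeodomain factors Hesx1, Pitx1, Lhx3, Lhx4 and Isl1 act early in the pouch, and Six6 supports the growth of its progenitors. Pou1f1, also called Pit-1, later specifies the somatotropes, lactotropes and thyrotropes, while Gata2 acts in thyrotropes and gonadotropes.

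The RNA-Best library held 53915047 counts and the RNAlater library 44917492, a ratio of 1.20. Levels are given as CPM, the count of a gene per 1000000 counts of its library, and differences between libraries are given as log2 ratios of RNA-Best to RNAlater with 0.5 CPM added to each value, while their intervals are those of the ratio without this constant. Over the 16504 genes with a mean CPM of 1 or more, called the genes tested here, the median log2 ratio was −0.18, and 67.0% of genes were lower in RNA-Best. Scaling by the trimmed mean of M-values of edgeR (TMM), by the size factors of DESeq2 or by a column total without Prl and Gh moved this median upward by 0.16, 0.17 and 0.12. The median was lower for longer transcripts, from 0.29 for genes whose longest annotated transcript was up to 1 kb to −0.90 for those over 10 kb. Prl, which encodes prolactin, stood at 235654 CPM in RNA-Best against 172302 CPM in RNAlater, and Gh, which encodes growth hormone, at 61040 and 59379 CPM, so the defining hormone genes of the labelled tissue were abundant in both libraries.

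Of the 8 factors, 4 were abundant, 2 were moderate and 2 were at the edge of detection, in the same way in both libraries. Pou1f1, Pitx1, Lhx3 and Six6 lay between 69.8 and 93.6 CPM in RNA-Best and between 83.0 and 90.1 CPM in RNAlater, and together took 93.2% and 91.1% of the counts of the 8 genes. Gata2 and Isl1 lay between 11.7 and 20.6 CPM. Lhx4 and Hesx1 stayed under 0.3 CPM in both libraries and were the 2 factors that did not reach a mean of 1 CPM. The summed level of the 8 was 357 CPM in RNA-Best against 380.0 CPM in RNAlater, a log2 ratio of −0.09. In bulk RNA, fewer cells that express a gene and less of its RNA per cell cannot be told apart.

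**Figure D1:**
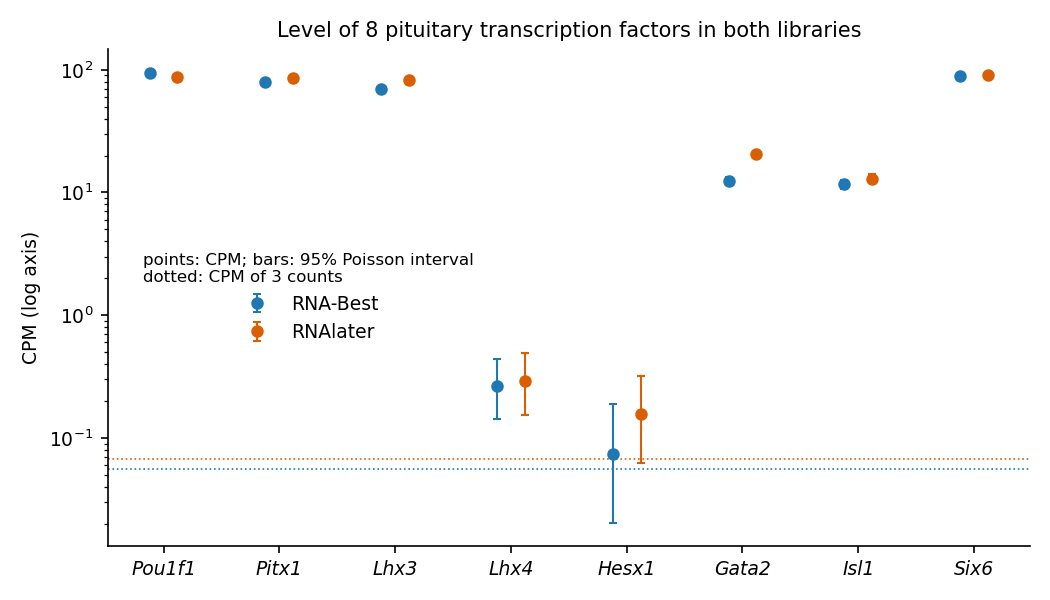
CPM of the 8 factors on a log axis in the RNA-Best library (blue) and the RNAlater library (orange), with bars for the 95% Poisson counting interval and dotted lines at the CPM that 3 counts give (0.0556 in RNA-Best and 0.0668 in RNAlater). In both libraries 4 factors sit near 100 CPM, Gata2 and Isl1 near 10 CPM, and Lhx4 and Hesx1 under 0.3 CPM, and the bars of Pou1f1, Pitx1, Lhx3 and Gata2 do not overlap between libraries.

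Between the libraries, 7 of the 8 factors were lower in RNA-Best and 1, Pou1f1, was higher under the column total, against 3 lower and 5 higher under TMM and DESeq2. Among the 6 factors that reached a mean of 1 CPM, 5 were lower, beside 67.0% of all genes tested. A single factor, Gata2, was at least 1.5-fold lower, beside 18.8% of all genes, and none was at least 1.5-fold higher, beside 3.22%. None passed a 2-fold limit, which 4.99% of all genes passed downward and 0.273% upward. These counts use ratios with 0.5 CPM added, and without that constant Hesx1, with 4 and 7 counts, was 2.10-fold lower in RNA-Best, with an interval that included no difference. The median log2 ratio of the 8 factors was −0.12, which is 0.06 above the median of all genes, and their range from lowest to highest was 0.81. The counting interval of the ratio lay below 0 for Pitx1, Lhx3 and Gata2, above 0 for Pou1f1, and included 0 for the other 4.

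**Figure D2:**
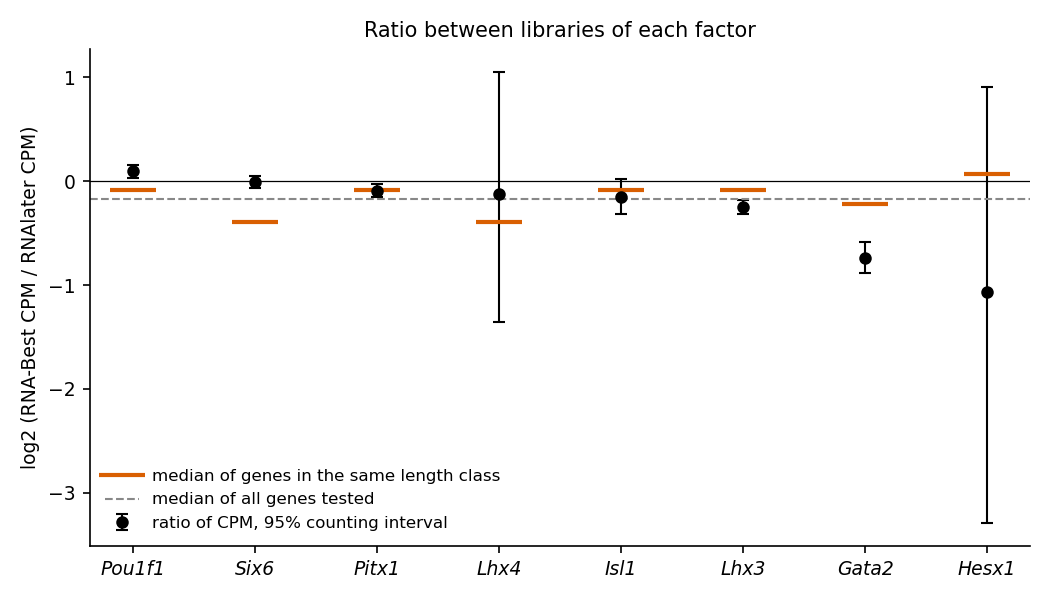
Log2 ratio of RNA-Best CPM to RNAlater CPM for each factor, computed without an added constant, with the 95% exact conditional binomial interval (bars), the median of all genes tested (dashed grey line, −0.18) and the median of the genes in the same transcript length class (orange marks). Gata2, at −0.74, lies below its length class with a narrow interval, Pou1f1 and Six6 lie above theirs, and the intervals of Lhx4 and Hesx1 include 0 and are the widest.

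Pou1f1 (ENSMUSG00000004842.18, chr16:65520511-65535005, plus strand) encodes the POU homeodomain factor that drives transcription of growth hormone, prolactin and the thyrotropin beta subunit. It gave 5049 estimated counts, or 93.6 CPM, in RNA-Best and 3942 counts, or 87.8 CPM, in RNAlater. Under the column total it was the only factor higher in RNA-Best, and it was higher under each of the 4 scalings. The difference was 1.07-fold, with a log2 ratio of 0.09 and an interval of 0.03 to 0.15. That ratio was 0.27 above the median of all genes and 0.18 above the median of genes with transcripts of 2 to 3 kb, its own class. This class rests on a retained-intron transcript of 2240 bases without a coding frame. The longest coding transcript has 1773 bases, and the class of 1 to 2 kb had a median of 0.07. The share of Pou1f1 among the counts of the 8 factors was 26.2% in RNA-Best (exact binomial interval 25.6% to 26.8%) but 23.1% in RNAlater (22.5% to 23.7%), and these intervals did not overlap.

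The table gives 1 value for Pou1f1, although the annotation lists 5 transcripts. The forms that differ by the alternative splice acceptor of the second exon encode the long and the short Pit-1 protein, with coding lengths of 951 bases in Pou1f1-201 and 873 bases in Pou1f1-204. The 78 bases that only the long form holds, 26 codons, lie at chr16:65523485-65523562 on the plus strand of GRCm38. The first 20 of them are shown at the junction, beside the junction of the short form, because a gene count adds both forms and the values above cannot be split between them. In each sequence the first 20 bases end the first exon, at base 65520770, and the capitals mark bases of the long-form segment.
Pou1f1-201 junction: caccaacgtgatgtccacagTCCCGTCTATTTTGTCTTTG
Pou1f1-204 junction: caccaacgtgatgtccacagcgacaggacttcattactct

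The PCR assay that the study listed for pit1 has its forward primer in the first exon, at chr16:65520714-65520732, where 4 of the annotated transcripts match. Its reverse primer crosses the junction of the short form and matched Pou1f1-204 and the retained-intron transcript Pou1f1-202, but not Pou1f1-201. The capitals mark bases of the second exon (chr16:65523563-65523579), and the remaining 5 bases lie at chr16:65520766-65520770. The assay and the gene count therefore do not read the same set of transcripts.
pit1 forward primer: acagtgccgctgagtgtct
pit1 reverse primer: GTAATGAAGTCCTGTCGctgtg

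Pou1f1 is known to bind its own promoter. The 100 bases that end at its annotated start, chr16:65520412-65520511 on the plus strand of GRCm38, from RefSeq, are printed with the letters ATGNATA in capitals, a core that Pit-1 sites share. In the window of 250 bases before to 50 bases after the start, counting both strands and overlapping matches, these letters occurred 2 times at this start of Pou1f1 and 3 times at Hesx1, and in none of the windows of the other 5 factors with an entry. They were present in 8.84% of all 32851 promoter windows.
Pou1f1 promoter: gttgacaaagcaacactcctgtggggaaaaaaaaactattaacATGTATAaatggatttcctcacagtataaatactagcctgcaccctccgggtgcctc

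Genes that Pou1f1 is known to drive did not keep a constant proportion to it. Ratios of a pair of genes inside 1 library do not depend on the scaling, and the change of that ratio between libraries is given on the log2 scale. Relative to Pou1f1, Tshb, the thyrotropin beta subunit, was higher in RNA-Best by 0.65 and Prl by 0.36. Gh relative to Pou1f1 differed by −0.05. Ghrhr, the receptor through which growth hormone-releasing hormone acts on somatotropes, was lower relative to Pou1f1, by −0.67. These changes are not matched for transcript length. Relative to genes of the same length class, the log2 ratios were 0.18 for Pou1f1, 1.13 for Tshb and 0.17 for Prl. For Gh and Ghrhr they were −0.25 and −0.49. The value for Tshb rests on its longest annotated transcript, of 4396 bases, whose class of 4 to 6 kb had a median of −0.40. A shorter length would set Tshb against another class, and the median for genes up to 1 kb was 0.29. Per base of the longest transcript, Tshb was 0.288 times Pou1f1 in RNA-Best and 0.184 times in RNAlater. With other choices of length for both genes the ratio was 0.308 to 1.28. A wider list of 9 hormone and receptor genes, which also holds gonadotrope and corticotrope genes that Pou1f1 is not known to drive, had a median log2 ratio of 0.36. In RNA-Best 7 of them were higher, 2 by at least 1.5-fold, and 2 were lower, or 8 and 1 under TMM and DESeq2 scaling. Under the column total, 67.0% of all genes tested were lower and 3.22% were at least 1.5-fold higher. Tshb was the highest of them, at 52.9 CPM in RNA-Best against 31.6 CPM in RNAlater, a log2 ratio of 0.73. Ghrhr was the lowest, at 61.1 and 91.4 CPM, a log2 ratio of −0.58. Pomc, which encodes the precursor of corticotropin, stood at 9550 and 6843 CPM. The median longest transcript of these 9 genes was 1043 bases, and relative to genes of the same length class their median was 0.17.

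Pitx1 (ENSMUSG00000021506.7, chr13:55825051-55836192, minus strand) encodes a paired-type homeodomain factor present in all hormone lineages from the pouch onward. It stood at 79.9 CPM in RNA-Best against 85.2 CPM in RNAlater, from 4307 and 3827 estimated counts. Its log2 ratio of −0.09, with an interval of −0.16 to −0.03, was 0.08 above the median of all genes, and it equalled the median of its length class to the second decimal. The longest identical coding run of Pitx1 with any listed family member was 29 bases, with Pitx3, which is shorter than the single reads the study used. Pitx3 itself was near 0, at 0.0742 CPM in RNA-Best and with no count in RNAlater, which allows up to 0.0668 CPM.

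Lhx3 (ENSMUSG00000026934.15, chr2:26200212-26208289, minus strand) encodes a LIM homeodomain factor needed for the growth of the pouch and for most hormone cell types. It gave 3763 counts, or 69.8 CPM, in RNA-Best and 3726 counts, or 83.0 CPM, in RNAlater. After Gata2 it had the lowest ratio of the 6 factors that reached a mean of 1 CPM, with a log2 ratio of −0.25 and an interval of −0.31 to −0.18. It lay 0.07 below the median of all genes and 0.16 below that of its length class. Its share of the counts of the 8 factors was 19.5% in RNA-Best (19.0% to 20.1%) against 21.8% in RNAlater (21.2% to 22.5%).

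Lhx4 (ENSMUSG00000026468.14, chr1:155698031-155751684, minus strand), the paralog that acts beside Lhx3 in the early pouch, was counted 14.3 and 13.0 times. These counts gave 0.266 CPM in RNA-Best (Poisson interval 0.142 to 0.436) against 0.289 CPM in RNAlater (0.154 to 0.495). The log2 ratio without an added constant was −0.12, with an interval of −1.35 to 1.05, so no difference was detectable at this depth. With 0.5 CPM added the log2 ratio was −0.04. Per base of the longest transcript, Lhx3 was 651 times Lhx4 in RNA-Best (interval 397 to 1221) against 711 times in RNAlater (415 to 1336). With other choices of transcript length the ratio was 406 to 540, so the gap between the paralogs kept its order of magnitude.

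A read that falls wholly within an identical run cannot be assigned to either paralog, which matters for Lhx4 beside the far more abundant Lhx3. The coding sequences of their longest transcripts share no identical run longer than 20 bases. That run lies in the homeobox, the part that encodes the DNA-binding homeodomain, and the 90 bases around it are printed as the closest stretch, with capitals where the paralogs differ. The 2 sequences were identical at 73 positions (81.1%) and differed at 17. In GRCm38 the Lhx3 stretch lies on the minus strand in the fourth exon (chr2:26202350-26202424) and the fifth (chr2:26202248-26202262), and the Lhx4 stretch on the minus strand in the fourth (chr1:155705172-155705246) and the fifth (chr1:155704858-155704872).
Lhx3: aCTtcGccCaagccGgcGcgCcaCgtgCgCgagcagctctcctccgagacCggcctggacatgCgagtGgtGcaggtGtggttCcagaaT
Lhx4: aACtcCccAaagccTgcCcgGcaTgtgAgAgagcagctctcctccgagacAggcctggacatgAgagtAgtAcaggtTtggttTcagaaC

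LIM homeodomain factors act through bridging proteins, and 10 genes of such LIM complexes were measured: the LIM-domain binders Ldb1 and Ldb2, their Ssbp partners, the ubiquitin ligase Rlim and LIM-only proteins. All 10 reached a mean of 1 CPM, and 9 were lower and 1 was higher in RNA-Best, none by 1.5-fold. Among all genes tested 67.0% were lower, and 18.8% were lower by at least 1.5-fold. The median of the 10, −0.20, was 0.02 below that of all genes. Under TMM the split was 6 lower and 4 higher, and under DESeq2 5 and 5. Ldb1, the most abundant, stood at 126 CPM in RNA-Best against 149 CPM in RNAlater, and Rlim at 88.4 and 104 CPM. Ssbp3 had the lowest log2 ratio, −0.54, with 52.5 and 76.5 CPM, and Lmo1 the highest, 0.27, with 24.4 and 20.1 CPM.

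Isl1 (ENSMUSG00000042258.13, chr13:116298281-116309689, minus strand) encodes a LIM homeodomain factor of the pouch that persists in gonadotropes and thyrotropes. It gave 629 counts, or 11.7 CPM, in RNA-Best and 581 counts, or 12.9 CPM, in RNAlater. The log2 ratio of −0.14 had an interval of −0.31 to 0.02, so a difference was not detectable at this depth. It was 0.03 above the median of all genes and 0.05 below that of its length class. Its paralog Isl2 was weaker in both libraries: per base of the longest transcript Isl1 was 4.10 times Isl2 in RNA-Best (3.35 to 5.06) against 4.98 times in RNAlater (3.96 to 6.32).

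Gata2 (ENSMUSG00000015053.14, chr6:88193891-88207032, plus strand), a zinc finger factor that cooperates with Pou1f1 at the Tshb promoter and acts in gonadotropes, differed most between the libraries among the 6 factors that reached a mean of 1 CPM. It gave 666 counts, or 12.4 CPM, in RNA-Best and 924 counts, or 20.6 CPM, in RNAlater. Its CPM was 1.67-fold lower in RNA-Best, with a log2 ratio of −0.71, or −0.74 without the added constant (interval −0.88 to −0.59). Of all genes tested, 12.9% had a lower ratio. With TMM or DESeq2 scaling the log2 ratio was −0.55 or −0.53, short of 1.5-fold, while with 0.5 CPM added Gata2 stayed the lowest of the 8. The ratio was 0.54 below the median of all genes and 0.49 below that of genes with transcripts of 3 to 4 kb. Its share of the counts of the 8 factors was 3.46% in RNA-Best (3.20% to 3.72%) against 5.41% in RNAlater (5.08% to 5.76%).

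The ratio of Pou1f1 to Gata2 per base of the longest transcript was 12.1 in RNA-Best (11.1 to 13.1) against 6.80 in RNAlater (6.33 to 7.31), a log2 change of 0.83. Gata2 thereby exchanged places with Isl1 in the order of levels: Isl1 was 1.34 times Gata2 in RNA-Best (1.2 to 1.5) against 0.892 times in RNAlater (0.803 to 0.991). Relative to Gata2, Tshb was higher in RNA-Best by 1.48 on the log2 scale and Cga, the alpha subunit shared by the glycoprotein hormones, by 1.33. These changes are not matched for transcript length. Against genes of the same length class, the log2 ratios were 1.13 for Tshb, 0.31 for Cga and −0.49 for Gata2. The value for Tshb rests on its longest annotated transcript, of 4396 bases. Per base of the longest transcript, Tshb was 3.48 times Gata2 in RNA-Best and 1.25 times in RNAlater. With other choices of length for both genes the ratio was 1.82 to 12.8. Gata3, a close relative of Gata2, gave 0.111 and 0.206 CPM.

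Gata2 is known to be expressed in endothelial cells as well, and the endothelial markers moved in the same direction. Of 10 such markers, all with a mean CPM of 1 or more, 9 were lower in RNA-Best, 8 of them at least 1.5-fold. The shares of all genes tested were 67.0% lower and 18.8% at least 1.5-fold lower. The 10 markers had a median log2 ratio of −1.05, which was 0.78 below genes of the same length class. Their summed level was 438 CPM in RNA-Best against 857 CPM in RNAlater. Plvap, which encodes a protein of fenestrated endothelium and was the most abundant, stood at 144 and 246 CPM. Kdr, a receptor for vascular endothelial growth factor, had the lowest log2 ratio, −1.63, at 36.6 and 115 CPM, and Egfl7 the highest, 0.04, at 38.3 and 37.2 CPM. None of the 10 was at 0. The part of endothelial RNA in the difference of Gata2 was not tested.

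Markers of other cells of the dissociated gland were also mostly lower in RNA-Best, beside 67.0% of all genes tested. All 10 pericyte and fibroblast markers were lower, 6 of them at least 1.5-fold, beside 18.8% of all genes tested. Their median was −0.75, and their summed levels were 608 and 815 CPM. Col1a1, a type I collagen chain, was the lowest at 8.93 and 23.9 CPM. Col1a2, also a type I collagen chain and the most abundant, stood at 376 and 425 CPM, a log2 ratio of −0.18. Of 8 posterior lobe markers, 7 reached a mean of 1 CPM and all 7 were lower, 4 of them at least 1.5-fold, with a median of −0.77. The remaining marker, Slco1c1, was near the floor at 0.0927 and 0.0891 CPM. All 9 stem and folliculostellate markers were lower, 3 of them at least 1.5-fold, with a median of −0.48. Among the 9 was Sox9 at 25.3 and 48.3 CPM. Relative to genes of the same length class the 3 medians were −0.40, −0.26 and −0.37. Under DESeq2 scaling 8 of 10, 7 of 7 and 7 of 9 were lower. The part of these cells in the ratios of the 8 factors was not tested.

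Six6 (ENSMUSG00000021099.6, chr12:72939892-72944899, plus strand) encodes a sine oculis-type homeodomain repressor of the pouch and the eye field. It gave 4834 counts, or 89.7 CPM, in RNA-Best and 4048 counts, or 90.1 CPM, in RNAlater. Its log2 ratio under the column total was −0.01, with an interval of −0.07 to 0.05, and it was above 0 under the other 3 scalings, at 0.16 with TMM, 0.18 with DESeq2 and 0.12 without Prl and Gh. With a transcript of 4009 bases it belonged to the class of 4 to 6 kb, whose median was −0.40, and it lay 0.39 above it, the largest distance upward of the factors that reached a mean of 1 CPM. The length of Six6 is just above the lower edge of this class, and the class of 3 to 4 kb had a median of −0.22. Six3, its closest paralog, stood at 29.8 CPM in RNA-Best against 49.8 CPM in RNAlater, so Six6 was 2.76 times Six3 per base of transcript in RNA-Best (2.61 to 2.93) against 1.66 times in RNAlater (1.58 to 1.75), and other choices of length gave 1.28 to 4.09. Six6 shares 192 exonic bases with 4930447C04Rik on the opposite strand, a gene counted at 116 and 100.1 CPM. Whether the counting used strand is not stated for these libraries, so reads of this overlap may be assigned to either gene.

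Sine oculis-type proteins such as Six6 work with Eya coactivators and Dach corepressors and GATA proteins with Zfpm cofactors. All 9 such partner genes reached a mean of 1 CPM, 8 were lower in RNA-Best, 3 by 1.5-fold or more, with a median of −0.49. Over all genes tested the 2 shares were 67.0% and 18.8%, and in the class of 4 to 6 kb 88.6% were lower. Relative to the median of all genes 7 were below and 2 above, under each of 4 scalings. The median longest transcript of these partners was 5186 bases, and relative to genes of the same length class their median was −0.18. Eya1, the most abundant, stood at 29.1 CPM in RNA-Best against 49.1 CPM in RNAlater. Zfpm1, the partner of GATA factors also called Fog1, had the lowest log2 ratio, −1.04, with 3.12 and 6.92 CPM, and Dach2 the highest, 0.10, with 9.03 and 8.37 CPM.

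Hesx1 (ENSMUSG00000040726.9, chr14:26994416-27002329, plus strand) encodes a paired-like repressor that is expressed transiently in the pouch and switched off before birth. It was counted 4 times in RNA-Best and 7 times in RNAlater. These counts gave 0.0742 CPM (Poisson interval 0.0202 to 0.190) and 0.156 CPM (0.0627 to 0.321). The log2 ratio without an added constant was −1.07, with an interval of −3.29 to 0.91, so no difference was detectable at this depth. With 0.5 CPM added the log2 ratio was −0.19.

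**Figure D3:**
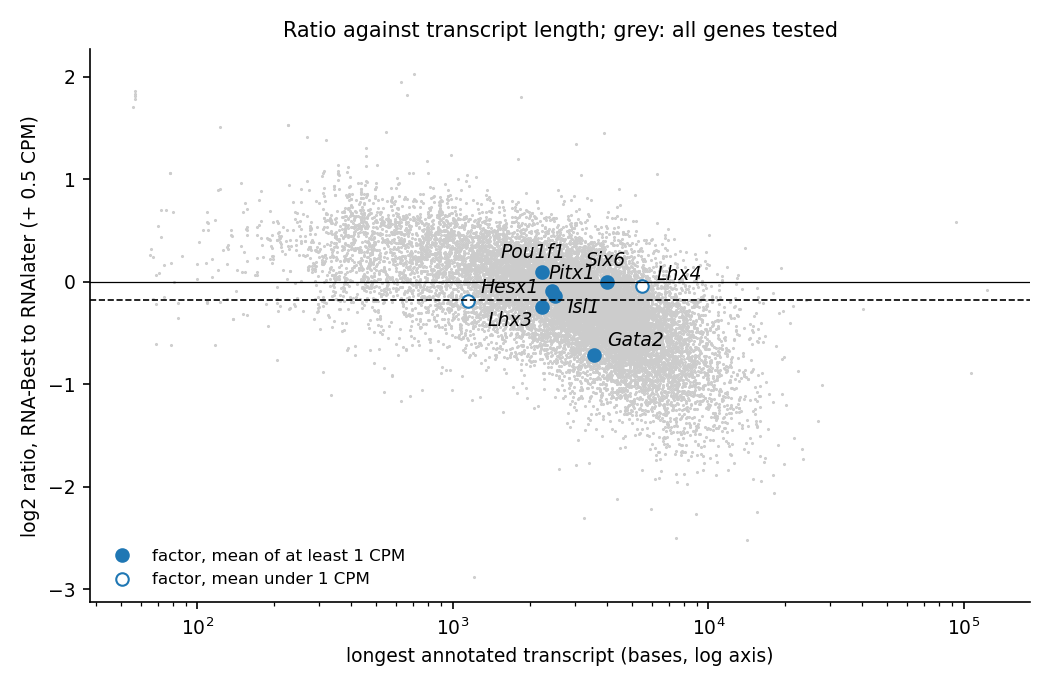
Log2 ratio between RNA-Best and RNAlater, with 0.5 CPM added, against the length of the longest annotated transcript (log axis) for all genes tested (grey) and the 8 factors (filled where the mean CPM was 1 or more, open where it was not), with the median of all genes dashed. Six6 lies in the upper part of the grey cloud at its length, 0.39 above its class median, and Gata2 in the lower part, 0.49 below, while Pitx1 and Isl1 lie within 0.06 of theirs.

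Relative to genes of like transcript length, 3 of the 8 factors were above their class median, Pou1f1, Lhx4 and Six6, and 5 were below. Relative to the median of all genes 5 were above and 3 below. The median of the 8 was 0.06 above that of all genes but −0.03 relative to the length classes, so the small offset of the group depended on the reference used. The sign of single factors depended on the scaling. With TMM, DESeq2 and the total without Prl and Gh the split of the 8 changed from 7 lower and 1 higher to 3 and 5, 3 and 5, and 4 and 4, with 51.4%, 50.4% and 55.5% of all genes lower. Pou1f1 was higher, and Gata2, Lhx3 and Hesx1 were lower, under all 4 scalings. For Hesx1 this rests on 4 and 7 counts, with a counting interval that included no difference. Pitx1, Lhx4 and Six6 changed sign under the other 3 scalings, and Isl1 under TMM and DESeq2. Relative to the median of all genes, 3 of the 8 were below it under each of the 4.

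**Figure D4:**
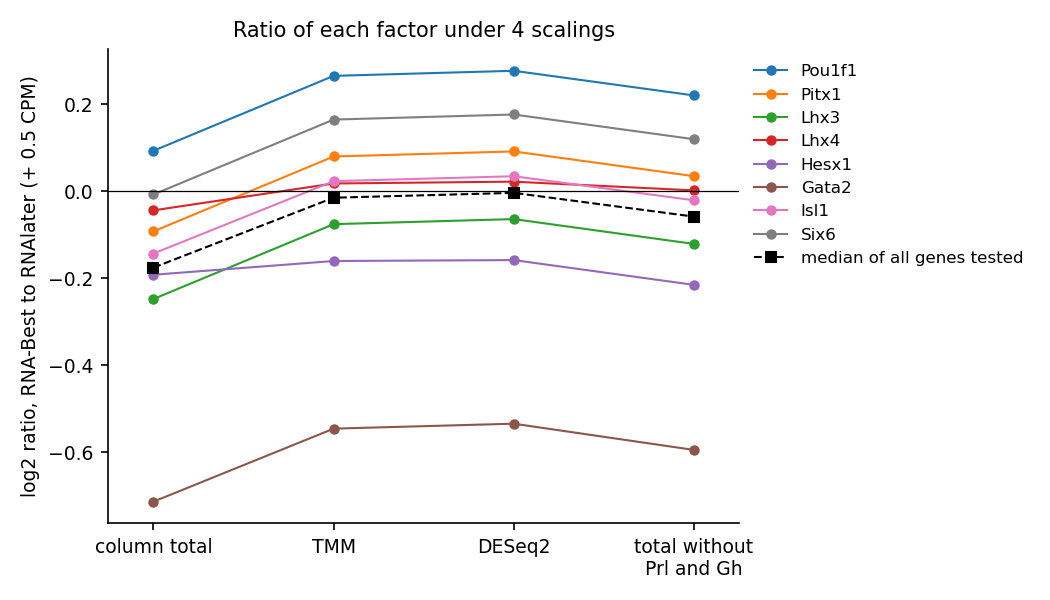
Log2 ratio between RNA-Best and RNAlater (0.5 CPM added) of each factor under the column total, TMM, DESeq2 size factors and the column total without Prl and Gh, with the median of all genes tested as black squares. Relative to the column total, the median of all genes moves up by 0.12 to 0.17 and the 6 factors with a mean CPM of 1 or more move up with it, and Gata2 stays lowest at −0.71, −0.55, −0.53 and −0.59.

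Levels of different factors were compared per length, as counts per base of the longest transcript scaled to the same sum over all genes in each library (here called TPM). In RNA-Best the order of TPM was Pou1f1 at 54.4, Pitx1 at 42.4, Lhx3 at 40.8, Six6 at 29.1, Isl1 at 6.03, Gata2 at 4.50, Hesx1 at 0.0845 and Lhx4 at 0.0627. In RNAlater the TPM were 61.7 for Pou1f1, 58.8 for Lhx3, 54.7 for Pitx1, 35.4 for Six6, 9.07 for Gata2, 8.09 for Isl1, 0.215 for Hesx1 and 0.0826 for Lhx4. Pou1f1 thus led in both libraries, and ranked above 90.6% and 90.2% of the genes tested. Neighbours in this order that did not differ beyond counting error were Pitx1 and Lhx3 in RNA-Best, with a TPM ratio of 1.04 (0.993 to 1.08), and Hesx1 and Lhx4 in both. In RNAlater the separations were narrow for Pou1f1 over Lhx3, 1.05 (1.004 to 1.098), Lhx3 over Pitx1, 1.07 (1.03 to 1.12), and Gata2 over Isl1, 1.12 (1.01 to 1.25). With the union of annotated exons as length, Pitx1 took the first place in both libraries.

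Other transcription factors of the pituitary lineages were mostly lower in RNA-Best. Of 26 such factors 25 reached a mean of 1 CPM, and of these 23 were lower, beside 67.0% of all genes tested, and 2 were higher. Of the 23, 8 were lower by 1.5-fold or more, beside 18.8% of all genes tested. The median log2 ratio of the 25 was −0.43, and −0.21 relative to genes of the same length class. The split was 20 lower and 5 higher under TMM and 19 and 6 under DESeq2, and relative to the median of all genes 19 were below it under each of the 4 scalings. Msx1, a homeodomain repressor, stood at 100.2 CPM in RNA-Best against 105 CPM in RNAlater, and Zbtb20, a repressor whose longest transcript has 26901 bases, at 47.6 and 123 CPM. Gli2, a mediator of hedgehog signaling, had the lowest log2 ratio, −1.44, at 2.17 and 6.72 CPM. Neurod4, a helix-loop-helix factor of the anterior lobe, had the highest, 0.27, at 86.3 and 71.4 CPM. No test of the difference between the 2 lists was possible with 1 library per group.

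Among these 26 factors, the nearest to each of the 8 in log2 level over the 2 libraries (0.5 CPM added, Euclidean distance) were Msx1 for Pou1f1 and Six6, Insm1 for Lhx3 and Pitx1, Sox2 for Gata2, Pax6 for Isl1, and Sox3 for Lhx4 and Hesx1. The closest of these pairs was Lhx3 with Insm1, at 66.5 and 88.0 CPM and a distance of 0.11. The most distant was Hesx1 with Sox3, at 0.779 and 0.601 CPM and a distance of 1.38. For Gata2 the nearest factor, Sox2, stood at 15.0 and 22.2 CPM and was also lower in RNA-Best, with a log2 ratio of −0.55.

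**Figure D5:**
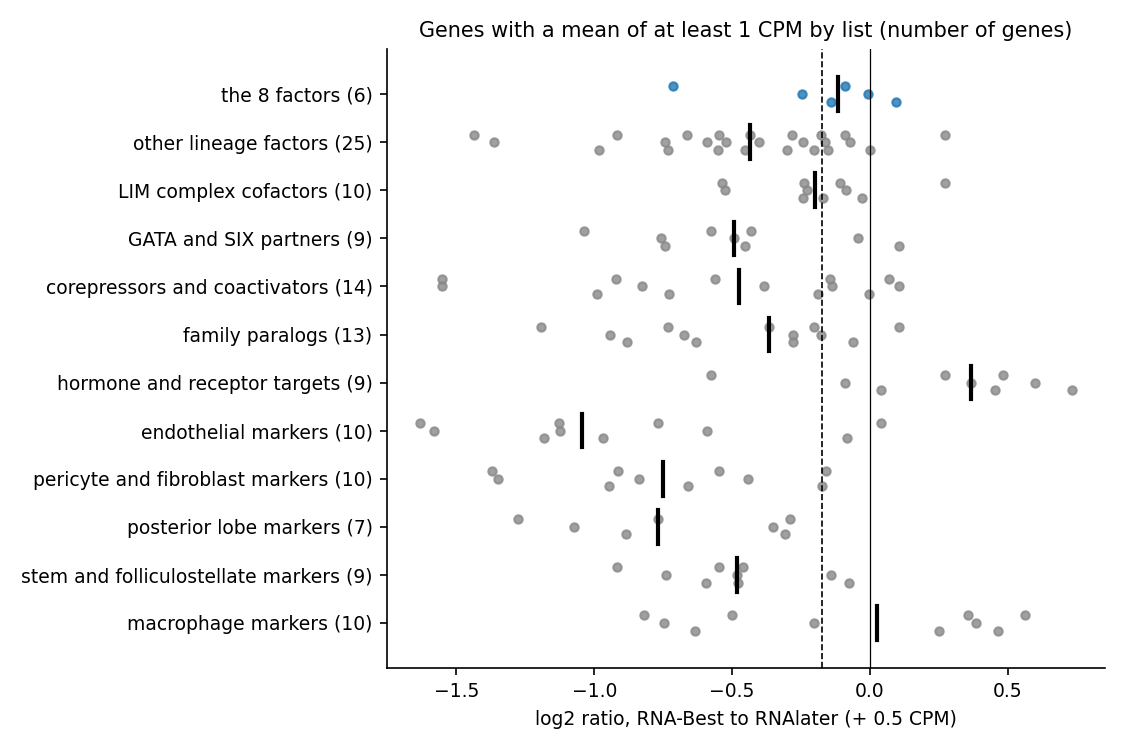
Log2 ratio between RNA-Best and RNAlater (0.5 CPM added) of each gene with a mean CPM of 1 or more, by list, with the list's median as a black bar, 0 as a solid line and the median of all genes tested, −0.18, as a dashed line. The 6 factors with enough counts (blue) have a median of −0.12, the other lineage factors −0.43, the hormone and receptor genes 0.36 and the endothelial markers −1.05.

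Paralogs of the 8 factors were mostly weak or lower in RNA-Best. Of 26 paralogs listed for the POU, PITX, LIM homeodomain, GATA, ISL and sine oculis-type families, 13 reached a mean of 1 CPM. In RNA-Best 12 of these were lower, beside 67.0% of all genes tested, and 1 was higher. Of the 12, 6 were lower by 1.5-fold or more, beside 18.8% of all genes tested. Under DESeq2 scaling the split was 10 lower and 3 higher. The median of the 13 was −0.37, and −0.14 relative to genes of the same length class. Pou2f1 had the lowest log2 ratio, −1.19, at 6.18 and 14.7 CPM, and Isl2 the highest, 0.10, at 2.10 and 1.91 CPM. The longest identical coding run with a listed family member was 16 bases for Pou1f1, 24 for Gata2, 23 for Isl1 and 20 for Six6, each shorter than the single reads.

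Overlaps with other genes touched 4 of the factors. Besides Six6, Lhx3 shares 188 exonic bases with the antisense gene Gm27196, counted at 4.04 and 5.92 CPM. Pitx1 shares 108 bases on its own strand with the long non-coding Gm28760, at 1.54 and 2.63 CPM, and 165 bases with the antisense gene Gm47071, not analysed here. Pou1f1 shares 136 bases with Gm49631 on the opposite strand, which was not analysed here. Counts were whole numbers in both libraries for 5 of the 8 factors, and Pou1f1, Pitx1 and Lhx4 held fractions.

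The promoters of the factors differed in base composition. Of the 8, 7 had an entry among the RefSeq promoter windows of GRCm38. G and C were counted only over the 250 bases before the start in each window. There the windows of Pou1f1 held 41.2% and 43.2% G and C and that of Hesx1 34.0%, below the median of 52.4% over all 32851 windows. Those of Lhx4, Lhx3, Gata2, Six6 and Isl1 held 62.0% to 74.0%, including the second windows of Lhx3 and Gata2. The letters TATAAA, searched on both strands, were in a window of 3 of the 7 factors, Lhx3, Hesx1 and Pou1f1, beside 13.6% of all windows. The letters TAATCC, a core bound by PITX factors, were at Isl1 alone, beside 7.06% of all windows. The homeodomain core TAATTA was at none of the 7, beside 5.29%. Isl1 alone held AGATAA, a core that Gata2 and its relatives bind, beside 11.2%.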

How the data were processed

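Poly(A) RNA of 2 samples was measured, grouped by the stabilizer in the labels. The authors deposited 1 table of estimated counts per gene, not normalized. The submitters' processing notes name STAR 2.5.1b, featureCounts 1.5.0-p1 and the build mm10. Fractions stood in 35.4% of the values above 0 in RNA-Best and 34.9% in RNAlater, where whole counts had been planned for. The counting option behind the fractions, and the strand setting, are not given in the sources used here. No column was without a sample (0).

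Of 47069 identifiers, 46574 (98.9%) matched GENCODE M21, version suffixes ignored, which gave symbols, coordinates and lengths. CPM used the column totals, and log2 ratios used a pseudocount of 0.5 CPM, which understates ratios of weak genes. Counts were rounded for exact intervals (95%) and for edgeR 4.0.16 and DESeq2 1.42.0 (R 4.3.3), used only for scaling factors. The floor was 3 counts. Python 3.11.15 with scipy 1.17.1 was used, and the interval code was tested on simulated data. The genes tested had a mean of at least 1 CPM. No p-value is given.

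The 8 factors and 11 gene lists were chosen with earlier results of these data known. The 8 factors are all described. From each list the genes with the highest and lowest ratio and the 3 with the highest mean CPM could be named, as well as the listed lineage factor nearest to each of the 8 and genes with overlapping exons. Some of these genes are not reported here. Aes is the annotation's name for Tle5. The markers, targets, paralogs and pair partners used beside a factor were named with it. Alternatives were 3 other scalings, pseudocounts of 0.1 and 2 CPM, other filters, length-matched medians, a 2-fold limit and other transcript lengths. Promoters and primers were matched to GRCm38.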

Additional observations from a re-analysis of the deposited data

How the results depend on the processing

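With TMM factors the number of the 8 factors lower in RNA-Best was 3, with DESeq2 size factors 3, and with the column total without Prl and Gh 4, in place of 7. The number at least 1.5-fold lower was 0 with TMM, 0 with DESeq2 and 0 at a 2-fold limit, in place of 1. The median log2 ratio of the 8 was 0.02 with TMM, 0.03 with DESeq2 and −0.01 without Prl and Gh, and relative to all genes it was 0.04, 0.03 and 0.05. It was −0.05 relative to all genes with any count. With the median transcript length as divisor, 4 of the 8 factors kept their place in the order of per-length levels in both libraries, and with the union of exons 6. The pseudocounts of 0.1 and 2 CPM left the numbers of factors lower and at least 1.5-fold lower unchanged. With 2 CPM the number below the median of all genes was 2, in place of 3. The counts of Hesx1, 4 and 7, and of Lhx4 limit what could be seen at this depth. No paired analysis was possible because neither stabilizer had a second library, and leaving out a library would have left no comparison.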

Other observations

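Corepressors and coactivators through which homeodomain factors act were spread widely. Of 14 measured, all with a mean CPM of 1 or more, 12 were lower, 6 of them by 1.5-fold or more, and 2 were higher in RNA-Best. By comparison, 67.0% of all genes tested were lower and 18.8% were at least 1.5-fold lower. Under TMM and DESeq2 scaling 9 of the 14 were lower and 5 higher. Their median log2 ratio was −0.47, but −0.01 relative to genes of the same length class, and their median longest transcript had 4467 bases. Ep300, a histone acetyltransferase, was the lowest at 21.3 CPM in RNA-Best against 63.5 CPM in RNAlater, a log2 ratio of −1.55. Aes, a short Groucho-related protein that lacks the repeat domain of its relatives, was the highest and the most abundant, at 241 and 224 CPM, a log2 ratio of 0.10. Hdac2, a histone deacetylase, stood at 87.8 and 100.1 CPM.

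Macrophage markers had no common direction. Of 10, 5 were higher and 5 lower in RNA-Best, beside 67.0% of all genes tested that were lower. At the 1.5-fold limit 3 were lower and 0 higher, beside 18.8% and 3.22% of all genes tested. The 10 markers had a median log2 ratio of 0.02 and summed levels of 253 and 228 CPM. C1qa, a complement subunit, was the highest at 58.7 and 39.5 CPM, a log2 ratio of 0.56, and Cx3cr1, the fractalkine receptor, the lowest at 4.49 and 8.30 CPM, a log2 ratio of −0.82. Relative to genes of the same length class their median was 0.10.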
